A study of Mus musculus with 16 samples.

Results

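The genes described here are 10 immediate early and stress response genes: Fos, Fosb, Jun, Junb, Egr1, Atf3, Nr4a1, Ier3, Dusp1 and Zfp36. They were chosen by name as known members of this class, with earlier results of these data known. Their probes are those whose listed transcript belongs to one of these genes. That gave 12 probes of the 56605 on the array, with 2 probes each for Fosb and Junb and 1 for each of the other 8 genes. Whole kidneys of 16 mice were measured on one-colour expression arrays, 1 mouse per array, with 4 mice in each of 4 genotypes, all labelled 6 months old. The WT mice and the Sting-ko mice are labelled C57BL/6. The Fcgr2b-ko mice, a lupus model that lacks the inhibitory receptor for IgG, and the Fcgr2b-ko Sting-ko mice, called double-deficient below, are labelled as a mix of C57BL/6 with another inbred strain. Deletion of Fcgr2b and the mixed strain background therefore cannot be told apart. The Sting allele is Goldenticket, which leaves no functional STING protein, and the study's heatmaps head the lupus columns with 1 Goldenticket copy where the labels name only the Fcgr2b deletion. The study asked what STING, the adaptor of cytosolic DNA sensing, contributes to lupus in mice without Fcgr2b.

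Immediate early genes are transcribed within minutes of a signal from stored transcription factors, with no need for new protein, and their mRNAs are short-lived. Fos, Fosb, Jun and Junb encode subunits of the AP-1 transcription factor, Egr1 a zinc finger factor, Atf3 a stress-induced factor of the ATF/CREB family and Nr4a1 the orphan nuclear receptor Nur77, whereas Ier3 encodes a regulator of cell survival, Dusp1 a phosphatase that switches off MAP kinases and Zfp36 the mRNA-degrading protein tristetraprolin. In kidney, such genes are known to be induced by ischaemia and injury, and also by the handling of tissue.

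Promoters are shown for Fos, Nr4a1 and Atf3, whose signals varied together from mouse to mouse, and for Junb, the 1 member whose Fcgr2b-ko and WT values did not overlap on the brighter probe. RefSeq promoter sequences of the build GRCm38.p6 were used for 9 of the 10 members, and that of Egr1 is not shown. Each line gives the 250 bases before the gene's start, 5′ to 3′ on the gene's own strand, with matches to the motifs searched in capitals, so that a match on the opposite strand appears as its reverse complement. The windows are chr12:85473640-85473889 on the plus strand for Fos, chr15:101266596-101266845 on the plus strand for Nr4a1, chr1:191183334-191183583 on the minus strand for Atf3 and chr8:84978749-84978998 on the minus strand for Junb.
Fos: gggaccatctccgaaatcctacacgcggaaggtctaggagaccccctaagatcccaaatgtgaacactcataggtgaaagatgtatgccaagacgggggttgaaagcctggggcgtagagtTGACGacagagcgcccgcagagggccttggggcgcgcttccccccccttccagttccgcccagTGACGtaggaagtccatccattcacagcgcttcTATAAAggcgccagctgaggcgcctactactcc
Nr4a1: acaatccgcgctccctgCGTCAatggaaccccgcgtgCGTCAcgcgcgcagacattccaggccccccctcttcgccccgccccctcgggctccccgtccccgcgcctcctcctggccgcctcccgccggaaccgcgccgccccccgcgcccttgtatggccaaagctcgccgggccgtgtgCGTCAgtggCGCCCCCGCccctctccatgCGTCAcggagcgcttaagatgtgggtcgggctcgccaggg
Atf3: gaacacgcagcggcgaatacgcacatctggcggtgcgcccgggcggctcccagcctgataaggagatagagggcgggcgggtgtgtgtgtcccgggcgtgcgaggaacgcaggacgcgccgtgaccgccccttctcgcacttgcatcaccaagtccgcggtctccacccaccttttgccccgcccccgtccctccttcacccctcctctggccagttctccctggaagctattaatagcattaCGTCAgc
Junb: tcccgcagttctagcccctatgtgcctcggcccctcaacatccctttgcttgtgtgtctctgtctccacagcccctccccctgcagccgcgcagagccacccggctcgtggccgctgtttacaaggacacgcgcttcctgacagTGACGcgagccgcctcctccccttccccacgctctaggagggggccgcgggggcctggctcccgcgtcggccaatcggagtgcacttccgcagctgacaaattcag
The core TGACG of the cAMP response element was present on either strand in 6 of the 9 promoters (Fos, Fosb, Junb, Atf3, Nr4a1 and Dusp1), and in 17.8% of 32851 mouse promoters of the same length. The whole element TGACGTCA, which contains the core, was present in that of Dusp1 and in 1.55% of all promoters. The EGR site GCGGGGGCG was found in Fosb, Nr4a1 and Zfp36 (2.57% of all), TATAAA in Fos (12.4%) and the CArG box, the core of the serum response element, in Zfp36 (1.47%). The AP-1 sites TGACTCA and TGAGTCA, each the reverse complement of the other, were found in 0 of the 9 and in 4.46% of all promoters. A match describes letters in this window and is not evidence of a site in use.

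Signal is given below as the log2 of the background-subtracted intensity of a probe minus the log2 of the 75th percentile of its array, so that 0 is the brightness of the 75th percentile and 1 more is 2-fold brighter. Of the 12 probes, 11 exceeded background clearly on 4 or more of the 16 arrays and were tested, and the second Fosb probe, well above background on 0 of 16, was not. All 10 genes were represented by a tested probe, the brighter one where there were 2. Fos was not well above background in WT mouse 2, nor Fosb in WT mouse 3, and the other 8 genes were well above background on all 16 arrays. The number of probes well above background ran from 28441 in Fcgr2b-ko mouse 2 to 35564 in Fcgr2b-ko mouse 1. Only 4 mice per genotype limit the precision of every comparison.

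Fcgr2b signal was compared with the labels. It was at 2.13, 1.91, 1.60 and 1.14 in WT mice 1 to 4, at 0.70, 0.02, 0.06 and 0.19 in the Fcgr2b-ko mice and at −0.04, 0.50, −0.40 and −0.24 in the double-deficient mice, so all 8 deleted mice lay below all 4 WT mice. The Sting-ko mice were at 1.54, 1.05, 0.70 and −0.19, so mouse 3 matched the highest deleted mouse and mouse 4 lay below 6 of the 8 deleted mice, which goes against its label. For the comparisons that use mouse 4, the members' median is given with and without it. Values of the other gene lists are given only with it. Sting1 signal cannot check the Sting label, since Goldenticket changes the protein: it was at 1.03, −1.35, −0.59 and −0.00 in WT mice and at 1.01, 0.15, −0.10 and 0.11 in Sting-ko mice, and was highest in Fcgr2b-ko mice 1 and 4 (2.69 and 2.49). The summed signal of 4 Y-linked genes was high in WT mice 1 and 2 (2.88 and 1.52), Fcgr2b-ko mouse 3 (1.49), double-deficient mice 2 and 4 (2.72 and 1.65) and Sting-ko mouse 3 (1.56), and lay between −5.41 and −4.13 in the other 10 mice. Each genotype thus held mice with and without Y-linked signal. Markers of fat stood apart in mouse 1 of 3 genotypes, with a mean over 8 genes, relative to the WT mean, of 3.21 in WT mouse 1, 2.67 in Fcgr2b-ko mouse 1 and 1.82 in Sting-ko mouse 1.

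Averaged over the 10 members and set relative to the WT mean of each gene, the signal was at 0.36, −0.50, −0.14 and 0.29 in WT mice 1 to 4, at 1.71, 0.21, 0.77 and 1.49 in the Fcgr2b-ko mice, at 0.29, 0.06, 0.66 and 0.14 in the double-deficient mice and at 0.57, 0.37, 0.32 and 0.47 in the Sting-ko mice. Fcgr2b-ko mice 1 and 4 were the highest of all 16, and both were on slide 1 of the 2 array slides. Where values below include Fcgr2b-ko mice, a difference between slides and the part of these mice cannot be told apart. Fcgr2b-ko mouse 2, the lowest of its genotype, lay within the WT range. The group means were 0.00 ± 0.40 (SD, n = 4) in WT, 1.04 ± 0.68 in Fcgr2b-ko, 0.29 ± 0.27 in double-deficient and 0.43 ± 0.11 in Sting-ko mice. These averages are a description with no test. Over the 16 mice they had r = 0.48 with the brightness of the array's 75th percentile and r = 0.61 with the number of probes well above background. In whole kidney, more cells of a type and more RNA per cell cannot be told apart.

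**Figure D1:**
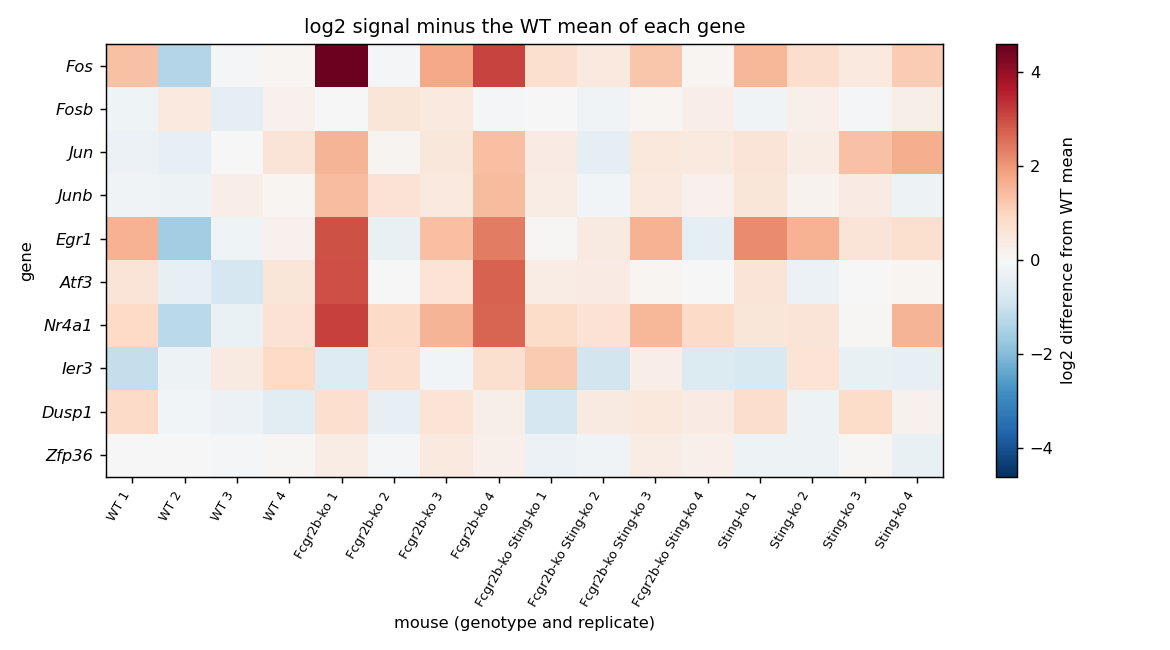
Log2 signal of each of the 10 genes (vertical) in each of the 16 mice (horizontal), as the difference from the WT mean of that gene, from blue (lower) to red (higher). Fcgr2b-ko mice 1 and 4 hold the darkest red fields, in Fos, Egr1, Atf3 and Nr4a1.

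Fos, the subunit whose induction defines the immediate early response, was at −2.24, −4.91, −3.67 and −3.48 in WT mice 1 to 4, at 0.95, −3.66, −1.83 and −0.45 in the Fcgr2b-ko mice, at −2.84, −3.13, −2.31 and −3.49 in the double-deficient mice and at −2.05, −2.77, −3.14 and −2.41 in the Sting-ko mice. Egr1 was at 0.11, −3.08, −1.70 and −1.27 in WT, at 1.44, −1.83, −0.10 and 0.88 in Fcgr2b-ko, at −1.42, −1.08, 0.10 and −1.94 in double-deficient and at 0.68, 0.12, −0.90 and −0.74 in Sting-ko mice. For both genes the highest value of all 16 was that of Fcgr2b-ko mouse 1, and Egr1 was lowest in WT mouse 2, where Fos was not well above background and its value is only a bound. For both genes Fcgr2b-ko mouse 2 lay within the WT range, so all groups overlapped with the Fcgr2b-ko group. Atf3 was at −2.14, −3.10, −3.50 and −2.16 in WT, at 0.24, −2.72, −2.08 and −0.01 in Fcgr2b-ko, at −2.37, −2.33, −2.65 and −2.75 in double-deficient and at −2.14, −3.01, −2.75 and −2.63 in Sting-ko mice. Nr4a1 was at 0.80, −1.35, −0.43 and 0.54 in WT, at 3.04, 0.78, 1.44 and 2.55 in Fcgr2b-ko, at 0.72, 0.55, 1.41 and 0.78 in double-deficient and at 0.43, 0.50, −0.04 and 1.47 in Sting-ko mice. Fcgr2b-ko mice 1 and 4 were above every other mouse for Atf3 and for Nr4a1, while mice 2 and 3 of that genotype lay within the other groups' ranges for Nr4a1. For Atf3, mouse 3 (−2.08) also lay just above the highest of the other 12 mice (−2.14), and mouse 2 within their range.

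Jun was at 1.63, 1.53, 1.90 and 2.50 in WT, at 3.45, 2.0, 2.41 and 3.29 in Fcgr2b-ko, at 2.26, 1.44, 2.38 and 2.33 in double-deficient and at 2.47, 2.23, 3.24 and 3.56 in Sting-ko mice. Unlike the genes above, its highest value was that of Sting-ko mouse 4, and its group means fell into a pair near 2.79 ± 0.70 and 2.88 ± 0.63 (Fcgr2b-ko and Sting-ko) and a pair at 1.89 ± 0.43 and 2.10 ± 0.45 (WT and double-deficient; SD, n = 4). Junb was at 1.85, 1.77, 2.33 and 2.12 in WT, at 3.44, 2.69, 2.46 and 3.46 in Fcgr2b-ko, at 2.37, 1.88, 2.48 and 2.21 in double-deficient and at 2.57, 2.18, 2.38 and 1.77 in Sting-ko mice. All 4 Fcgr2b-ko mice lay above all 4 WT mice on this brighter Junb probe, and double-deficient mouse 3 and Sting-ko mouse 1 reached into the Fcgr2b-ko range. On the second Junb probe, well above background on 9 of 16 arrays, the groups overlapped, with −4.87, −5.03, −4.84 and −3.45 in WT and −3.65, −4.15, −4.08 and −2.73 in Fcgr2b-ko mice.

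The other 4 members differed less between genotypes. Group means of Dusp1 ran from 1.88 ± 0.61 in WT to 2.28 ± 0.52 in Sting-ko mice, and those of Ier3 from 0.85 ± 0.57 in Sting-ko to 1.25 ± 0.68 in Fcgr2b-ko mice (SD, n = 4). Zfp36 had its lowest mean in Sting-ko mice, 0.36 ± 0.17, and its highest in Fcgr2b-ko mice, 0.77 ± 0.24, and Fosb means lay between −3.76 ± 0.40 in WT and −3.54 ± 0.31 in Fcgr2b-ko mice. For all 4 genes the ranges of the Fcgr2b-ko and double-deficient mice overlapped.

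**Figure D2:**
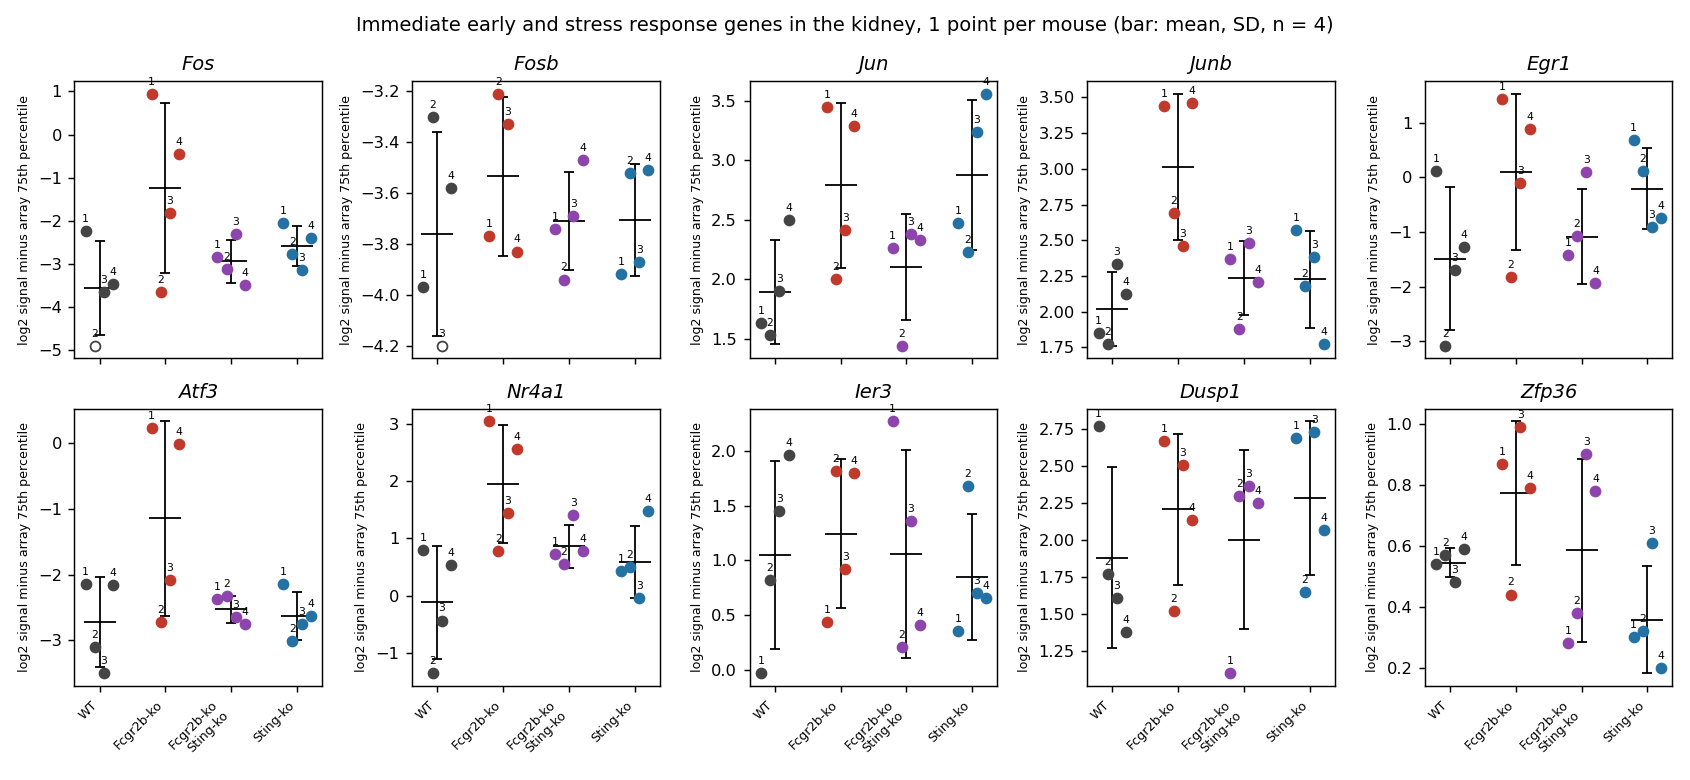
Log2 signal minus the 75th percentile of the array (vertical) for each gene and genotype, with 1 numbered point per mouse, open where the probe was not well above background; bars give the mean and SD of 4 mice. Fos lies at 0.95 and −0.45 in Fcgr2b-ko mice 1 and 4 and at −3.66 in mouse 2.

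STING loss on the Fcgr2b-deficient background was read as double-deficient minus Fcgr2b-ko. All 10 genes had lower means without STING, by log2 changes of −1.69 for Fos (SE 0.76, 95% interval −3.30 to −0.08), −1.38 for Atf3 (SE 0.55, −2.55 to −0.21), −1.18 for Egr1 (SE 0.73, −2.73 to 0.36) and −1.09 for Nr4a1 (SE 0.53, −2.21 to 0.04), the 4 members past 2-fold. Junb differed by −0.78 (SE 0.28, −1.37 to −0.19) and Jun by −0.69 (SE 0.39, −1.51 to 0.14), and the remaining 4 by −0.20 to −0.18. The median of the 10 changes was −0.73, beside 0.06 over all 35628 tested probes.

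With limma, 0 of the 10 members passed an adjusted p under 0.05 at 2-fold or more, and neither did any other probe (0.0% called). The adjusted p was 1.0 for every member, although 3 of 4 Fcgr2b-ko mice had more Fos signal than all 4 double-deficient mice. At an unadjusted p under 0.05, 3 members were lower (Fos, Atf3 and Junb), beside 1.81% of all tested probes in either direction and 1.16% lower, and the Mann-Whitney test gave 0 members. The groups did not overlap for 0 members, beside 1.02% of probes. The count of 3 became 1 without Fcgr2b-ko mouse 1, 0 without Fcgr2b-ko mouse 4, 6 without Fcgr2b-ko mouse 2, 1 without double-deficient mouse 4, 1 with the slide as a block, 1 when only the 8 arrays compared were fitted and 6 with a random block for mice whose labels open with the same number. No share of all probes is given for these alternatives, nor for those of the comparisons below. Leaving out both Fcgr2b-ko mice 1 and 4, an alternative chosen after seeing the data, gave changes of −0.20 for Fos, −0.13 for Atf3, −0.12 for Egr1 and −0.25 for Nr4a1, and a median of −0.16. The 3 Fcgr2b-ko arrays on slide 1 and the 1 on slide 2 were set against 1 and 3 double-deficient arrays: Fos differed by −1.79 within slide 1 and −1.15 within slide 2, Atf3 by −1.54 and −0.49, Nr4a1 by −1.40 and −0.52 and Egr1 by −1.59 and −0.88. Junb differed by −0.82 and −0.27, and Ier3 was higher within slide 1, by 0.91, and lower within slide 2, by −0.26.

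STING loss alone, Sting-ko minus WT, gave values of the other sign for most members. Egr1 was higher by 1.28 (SE 0.73, −0.27 to 2.82), Fos by 0.99 (SE 0.76, −0.62 to 2.60), Jun by 0.99 (SE 0.39, 0.16 to 1.81) and Nr4a1 by 0.70 (SE 0.53, −0.42 to 1.82). Without WT mouse 2, where Fos was not well above background, Sting-ko minus WT was 0.54 for Fos, 0.74 for Egr1 and 0.29 for Nr4a1. Without that mouse it was 0.87 for Jun, and Atf3 turned lower, at −0.03. With all mice, Dusp1 (0.40), Junb (0.21), Atf3 (0.09) and Fosb (0.06) were also higher, and Ier3 and Zfp36 lower (−0.20 and −0.19), for a median of 0.30 beside 0.00 over all tested probes. With limma 0 of 10 members were called (0.0% of probes), with a smallest adjusted p of 0.732, and 2 of 4 Sting-ko mice lay above all 4 WT mice for Jun. Jun alone had an unadjusted p under 0.05 (3.76% of probes in either direction, 1.84% higher), and the Mann-Whitney test gave 0 members. Without WT mouse 2, Sting-ko mouse 3 or Sting-ko mouse 4, and with scaling by the median of the array, that count was 0, and with the latter the members' median was 0.06. Without Sting-ko mouse 4, whose Fcgr2b signal goes against its label, Sting-ko minus WT was 0.76 for Jun, 1.45 for Egr1 and 0.93 for Fos. It was then 0.41 for Nr4a1 and −0.01 for Fosb, with a median of 0.38. The groups did not overlap for 0 members, beside 2.04% of probes. Within slides 1 and 2 Jun differed by 0.77 and 1.20, Egr1 by 1.88 and 0.67 and Fos by 1.17 and 0.80. The sign differed between slides 1 and 2 for Junb (0.57 and −0.15), Dusp1 (−0.10 and 0.91), Fosb (−0.09 and 0.20) and Ier3 (0.63 and −1.02).

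The interaction tests whether the STING effect differs between the backgrounds, and it combines both comparisons above. It was −2.68 for Fos (SE 1.07, −4.96 to −0.40), −2.46 for Egr1 (SE 1.03, −4.64 to −0.27), −1.79 for Nr4a1 (SE 0.75, −3.38 to −0.20), −1.67 for Jun (SE 0.55, −2.84 to −0.50), −1.47 for Atf3 (SE 0.78, −3.13 to 0.18) and −0.98 for Junb (SE 0.39, −1.82 to −0.15). Without WT mouse 2, where Fos was not well above background, the interaction was −2.23 for Fos, −1.93 for Egr1 and −1.37 for Nr4a1. Without that mouse it was −1.55 for Jun, −1.35 for Atf3 and −0.90 for Junb, with a median of −1.13. With all mice, the median over the 10 members was −1.23, beside 0.03 over all tested probes. With limma 0 members were called (0.0% of probes) and the smallest adjusted p among them was 0.661, so a difference between the STING effects did not pass the test for any member. At an unadjusted p under 0.05, 5 members were negative (Fos, Jun, Junb, Egr1 and Nr4a1), beside 6.27% of probes in either direction, 2.66% negative and 3.61% positive. That count was 2 without WT mouse 2, without Fcgr2b-ko mouse 1 or without Fcgr2b-ko mouse 4, 3 without Sting-ko mouse 1, 1 with Y-linked signal as a covariate and 0 without both Fcgr2b-ko mice 1 and 4, where the median was −0.52. Within slides 1 and 2 the interaction of Fos was −2.96 and −1.95, that of Egr1 −3.47 and −1.54, that of Jun −1.42 and −1.56, that of Nr4a1 −2.14 and −1.18 and that of Junb −1.39 and −0.12. Without Sting-ko mouse 4 the interaction had a median of −1.29 and 4 members at an unadjusted p under 0.05.

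**Figure D3:**
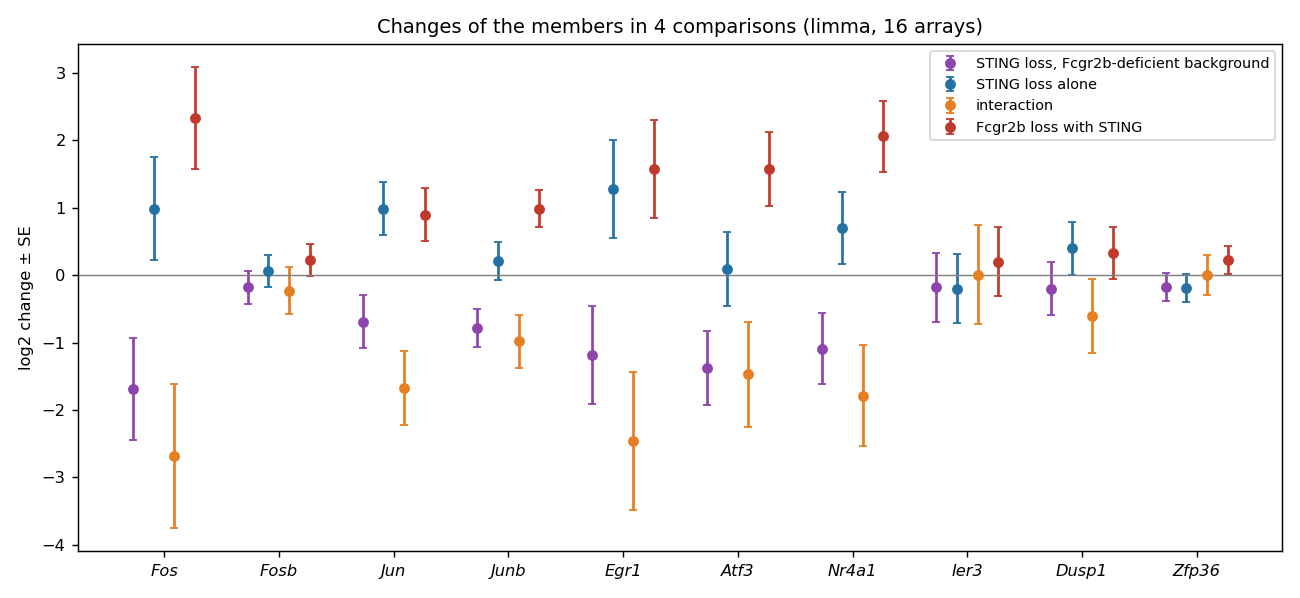
Log2 change of each gene (horizontal) in 4 comparisons, with the SE from limma over 16 arrays (vertical, log2). For Fos, Egr1, Nr4a1 and Jun the change with STING loss lies below 0 on the Fcgr2b-deficient background and above 0 without it, and 0 of these changes passed the adjusted test.

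Fcgr2b loss with STING present, Fcgr2b-ko minus WT, gives the level from which the double-deficient mice were read; it shares the Fcgr2b-ko mice with the first STING comparison and the WT mice with the second. All 10 members had higher means, by 2.33 for Fos (SE 0.76, 0.72 to 3.94), 2.06 for Nr4a1 (SE 0.53, 0.94 to 3.19), 1.58 for Egr1 (SE 0.73, 0.04 to 3.13), 1.58 for Atf3 (SE 0.55, 0.41 to 2.76), 0.99 for Junb (SE 0.28, 0.40 to 1.58) and 0.90 for Jun (SE 0.39, 0.07 to 1.73). Without WT mouse 2, where Fos was not well above background, Fcgr2b-ko minus WT was 1.88 for Fos, 1.65 for Nr4a1 and 1.05 for Egr1. Without that mouse it was 1.46 for Atf3, 0.91 for Junb and 0.78 for Jun. With all mice, the other 4 members differed by 0.20 to 0.33, and the median was 0.95, beside −0.06 over all tested probes. With limma 0 of 10 were called where 18 probes (0.0505%) were, and the smallest adjusted p among members was 0.532, for Nr4a1, with 3 of 4 Fcgr2b-ko mice above all 4 WT mice. The 6 genes just named had an unadjusted p under 0.05, all higher, beside 3.35% of probes in either direction and 2.64% higher. The Mann-Whitney test gave 1, Junb, the 1 member whose groups did not overlap (1.24% of probes). The 18 called probes became 37 without Fcgr2b-ko mouse 2, 3 without Fcgr2b-ko mouse 1 and 0 without Fcgr2b-ko mouse 4 or without WT mouse 2, 3 or 4. The count of 6 members became 3 with a random block for mice whose labels open with the same number, and 4 with Y-linked signal as a covariate, with the authors' table, or without WT mouse 2, WT mouse 3, Fcgr2b-ko mouse 1 or Fcgr2b-ko mouse 4. Without both Fcgr2b-ko mice 1 and 4, Fos differed by 0.83, Nr4a1 by 1.22, Egr1 by 0.52 and Atf3 by 0.33, with 1 member at an unadjusted p under 0.05. Within slides 1 and 2 Fos differed by 2.52 and 1.75, Nr4a1 by 2.40 and 1.38, Egr1 by 1.65 and 1.39 and Atf3 by 1.79 and 0.75. Junb and Jun differed by 1.39 and 1.33 within slide 1, which holds Fcgr2b-ko mice 1 and 4. Within slide 2 they differed by 0.23 and 0.21. Ier3 was lower within slide 2 (−0.78) and Dusp1 within slide 1 (−0.16).

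The double-deficient mice were also set against the Sting-ko and the WT mice, which are labelled C57BL/6 and without Fcgr2b deletion. Fcgr2b deletion and strain background cannot be told apart in either comparison. Double-deficient minus Sting-ko had a median of 0.00 (all probes 0.01), with 5 members higher and 5 lower, Egr1 and Jun lowest at −0.88 (SE 0.73, −2.42 to 0.67) and −0.77 (SE 0.39, −1.60 to 0.05), and Fos at −0.35 (SE 0.76, −1.96 to 1.26). Without Sting-ko mouse 4 that median was −0.04. Double-deficient minus WT had a median of 0.21 (all probes 0.00), with all 10 higher, led by Nr4a1 at 0.97 (SE 0.53, −0.15 to 2.10) and Fos at 0.64 (SE 0.76, −0.97 to 2.24). Within slides this did not hold for 6 members, which were lower in 1 slide: Fosb (−0.10), Dusp1 (−1.17) and Zfp36 (−0.27) within slide 1 and Jun (−0.15), Junb (−0.04) and Ier3 (−1.04) within slide 2. Nor did it hold without WT mouse 2, where Fos was not well above background: Egr1 (−0.13) and Ier3 (−0.06) were then lower. Without that mouse Nr4a1 differed by 0.56 and Fos by 0.19, and the median was 0.09. In the former comparison 0 members were called with limma (0.0% of probes), 0 had an unadjusted p under 0.05 (3.05%) or by the Mann-Whitney test, and 0 did not overlap (2.13%). In the latter, too, 0 members were called (0.0%), 0 passed an unadjusted p under 0.05 (0.424%, with 0.298% higher and 0.126% lower) or the Mann-Whitney test, and 0 did not overlap (0.547%). A p that misses the threshold does not show equal levels.

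Fos, Egr1, Atf3 and Nr4a1 varied together from mouse to mouse. Over the 16 mice, Fos had a Pearson r of 0.91 with Egr1 (Spearman 0.92), 0.90 with Nr4a1 (0.71) and 0.89 with Atf3 (0.82), and these were 0.91, 0.87 and 0.85 after removing genotype means. Without Fcgr2b-ko mice 1 and 4, the mice farthest from the median of the members' average, r was 0.92 for Fos with Egr1, 0.78 with Nr4a1 and 0.62 with Atf3. The pairs without Fos were weaker: r was 0.83 for Atf3 with Nr4a1 (Spearman 0.70), 0.76 for Egr1 with Nr4a1 (0.51) and 0.71 for Egr1 with Atf3 (0.66), and 0.57, 0.60 and 0.51 without the same mice. Slide 1 holds both Fcgr2b-ko mice 1 and 4. Within slides 1 and 2, of 8 mice each, Fos and Egr1 had r of 0.90 and 0.90, Fos and Nr4a1 0.94 and 0.82 and Fos and Atf3 0.93 and 0.49. Junb went with Atf3 (0.77, Spearman 0.38) and Fos (0.75, Spearman 0.45), which rests on Fcgr2b-ko mice 1 and 4, since r was 0.05 and 0.25 without them. Ier3 and Dusp1 ran opposite to each other, at −0.81 (Spearman −0.79), −0.85 without the same mice and −0.88 and −0.67 within slides. Of the 45 pairs of members, 8 had r over 0.7 (17.8%, beside 6.21% of 634196305 pairs of tested probes), 4 by Spearman, 2 without Fcgr2b-ko mice 1 and 4, 15 and 4 within slides 1 and 2, and 6 after removing genotype means (13.3% beside 7.43%). The median r was 0.35, 0.27 after removing genotype means and 0.16 without Fcgr2b-ko mice 1 and 4, beside 0.00 over all pairs, and 0.50 and 0.28 within slides 1 and 2. With the authors' table it was 0.57, and 0.62 after removing genotype means. All 45 pairs were computed, no p is given, and the values of a mouse share an array.

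**Figure D4:**
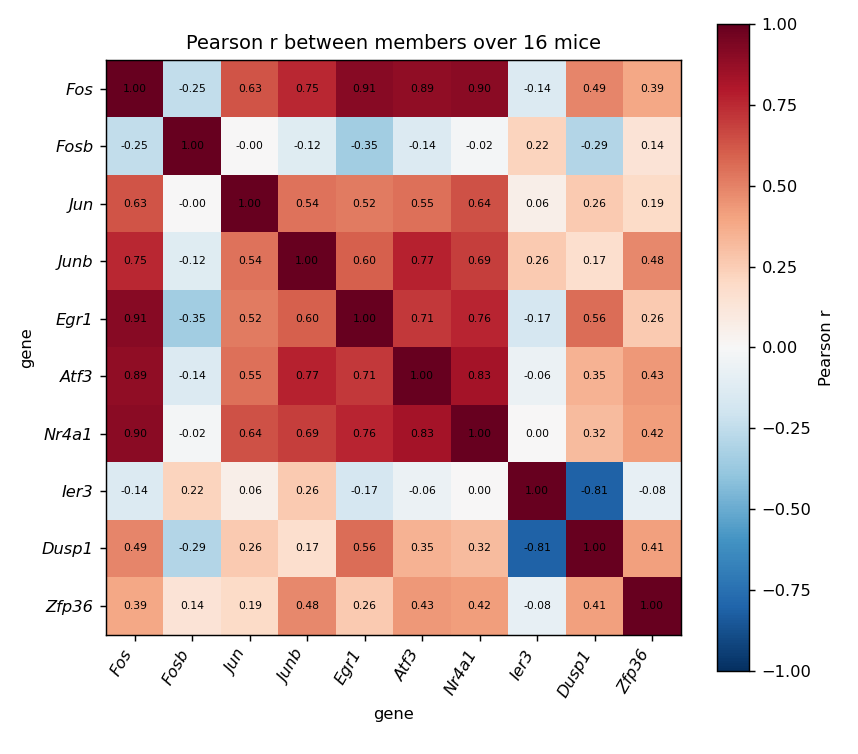
Pearson r of each pair of the 10 genes over 16 mice, from blue (−1) to red (1). Fos, Egr1, Atf3 and Nr4a1 hold values from 0.71 to 0.91, and Ier3 with Dusp1 −0.81.

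Among 16372 other named genes, those most like the members' average over the 16 mice included Egr2, a relative of Egr1, and Csf2rb2 (r = 0.96 each; Spearman 0.74 and 0.80). Agpat4, the kinase gene Syk, the cytokine subunit gene Ebi3 and Socs3, an inhibitor of cytokine signalling, followed at 0.95, and the potassium channel gene Kcnn4, the cytokine receptor gene Csf2rb and Vim at 0.94. Their r without Fcgr2b-ko mice 1 and 4 ran from 0.79 (Vim) to 0.88 (Egr2). Within slide 2 it ran from 0.66 to 0.84, and within slide 1 from 0.97 to 0.99. Of all these genes, 1139 (6.96%) had r over 0.7, and the median was −0.13.

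Related genes of the same response were read from lists chosen by name, with earlier results of these data known. Of 19 tested genes for other immediate early transcription factors, 17 were lower and 2 higher with STING loss on the Fcgr2b-deficient background (median −0.52), 15 higher and 4 lower with STING loss alone (0.48), and 16 higher and 3 lower with Fcgr2b loss (0.65). Egr2 had means of −0.81 in Fcgr2b-ko and −3.05 in double-deficient mice, a difference of −2.24 (SE 0.88), Cebpd differed by −1.13 (SE 0.78) and Fosl2 by −0.79 (SE 0.50). Of 20 other early response effectors, 18 were lower and 2 higher on the Fcgr2b-deficient background (−0.36), 17 higher with STING loss alone (0.43) and 19 higher with Fcgr2b loss (0.68). Socs3 differed by −1.69 (SE 0.70), the stress sensor gene Gadd45b by −1.04 (SE 0.51) and the NF-κB cofactor gene Bcl3 by −1.02 (SE 0.48). With limma 0 genes of either list were called in these comparisons. At an unadjusted p under 0.05 there were 1 and 2 for STING loss on the Fcgr2b-deficient background (1.81% of all probes), 0 and 0 for STING loss alone (3.76%) and 5 and 5 for Fcgr2b loss (3.35%). Averages of the lists went with that of the members over the 16 mice at r = 0.95 each (Spearman 0.85 and 0.89; 0.85 and 0.84 without Fcgr2b-ko mice 1 and 4).

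The 23 upstream kinases and SRF, ETS and CREB factors had medians of −0.00, 0.01 and −0.07 for STING loss on the Fcgr2b-deficient background, STING loss alone and Fcgr2b loss, and the 14 tested MAP kinase phosphatases and Sprouty inhibitors −0.12, 0.22 and 0.14. The mean of the phosphatase and Sprouty list nonetheless went with the members' average at r = 0.87 (Spearman 0.91), 0.80 without Fcgr2b-ko mice 1 and 4 and 0.91 and 0.85 within slides 1 and 2. In that list Dusp2 differed by −1.52 (SE 0.54) between double-deficient and Fcgr2b-ko mice. The 10 tested ZFP36 relatives and mRNAs with AU-rich elements, of which Ier3 is also a member, had medians of −0.67, 0.06 and 0.75, the first and last of them closer to the members' −0.73 and 0.95 than those of the other immediate early factors. Among these Il1b differed by −2.03 (SE 0.82), Ccl2 by −1.82 (SE 1.02) and Ccl3 by −1.60 (SE 0.71) on the Fcgr2b-deficient background.

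Other stress programmes were read in the same way. In the same order of comparisons, medians were −0.18, 0.04 and 0.06 for 15 genes of the integrated stress and unfolded protein response, −0.08, −0.11 and −0.14 for 14 heat shock genes, and 0.04, −0.28 and −0.07 for 14 genes of oxidative stress and hypoxia. They were 0.06, 0.20 and 0.19 for 10 glucocorticoid response genes, 0.21, 0.25 and −0.05 for 12 clock genes and 0.07, −0.34 and −0.19 for 10 reference genes. With STING loss alone 11 of 14 genes of oxidative stress and hypoxia and 9 of 10 reference genes were lower, with medians about as far from that of all probes, 0.00, as the members' 0.30. The reference genes ran opposite to the members over the 16 mice, at r = −0.58 (Spearman −0.80), −0.69 without Fcgr2b-ko mice 1 and 4 and −0.71 and −0.57 within slides 1 and 2, and the part of scaling or RNA quality in the members' values was not tested. With limma 0 genes of any list named here were called in these 3 comparisons. Lcn2 is both in the glucocorticoid list and in that of tubular injury below, and Xbp1 both among the unfolded protein response genes and the B and plasma cell markers.

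Markers of monocytes and macrophages were high in the same mice as the members. The mean of 13 markers, relative to WT, was 1.27, −0.61, −0.64 and −0.02 in WT mice, 3.08, 0.73, 0.69 and 2.74 in Fcgr2b-ko mice, 0.38, 1.46, 0.40 and 0.12 in double-deficient mice and 1.29, 0.17, 0.09 and 0.00 in Sting-ko mice. Fcgr2b-ko mice 1 and 4 were again highest. The summed signal, which includes the bright Ly6c2 probe, was 8.73, 8.31, 7.64 and 7.55 in WT, 8.62, 7.91, 7.94 and 8.35 in Fcgr2b-ko, 7.71, 8.84, 7.46 and 7.91 in double-deficient and 8.16, 7.56, 8.06 and 8.48 in Sting-ko mice. The part of Ly6c2 in that sum differed between mice. Ly6c2 was at 8.41 in WT mouse 1, at 7.59 and 7.30 in Fcgr2b-ko mice 1 and 4 and at 6.66 in Sting-ko mouse 4. With Fcgr2b loss 11 of 13 were higher (median 2.25; 10 at an unadjusted p under 0.05, beside 3.35% of all probes), and with STING loss on that background 11 of 13 were lower (median −1.43; 6 at an unadjusted p under 0.05, beside 1.81%), with 0 called by limma in both. Fcgr1 differed by −2.26 (SE 0.84), the macrophage receptor gene Adgre1 by −1.64 (SE 0.78) and Cd68 by −1.61 (SE 0.48). The groups did not overlap for Cd68, beside 1.02% of all probes, and overlapped for Fcgr1 and Adgre1. The list's mean went with the members' average at r = 0.84 (Spearman 0.59), 0.49 without Fcgr2b-ko mice 1 and 4, and 0.96 and 0.25 within slides 1 and 2. All 13 were well above background on some array and 11 on all 16, and their part in the members' values was not tested.

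Tubular injury genes had the same high mice. The mean of 11 genes, relative to WT, was 2.62, 0.41, 0.25 and 2.36 in Fcgr2b-ko mice and between −0.28 and 0.54 in the other 12 mice, so Fcgr2b-ko mice 1 and 4 lay apart from all others. Their summed signal, in which the Spp1 probe weighs most, was 7.21, 7.59, 8.44 and 8.43 in WT, 9.44, 8.88, 7.55 and 9.14 in Fcgr2b-ko, 8.58, 7.50, 8.36 and 7.36 in double-deficient and 7.96, 8.40, 7.17 and 8.24 in Sting-ko mice. With Fcgr2b loss 9 of 11 were higher (median 1.22; 5 at an unadjusted p under 0.05, beside 3.35% of all probes) and with STING loss on that background 10 of 11 lower (median −1.28; 5 at an unadjusted p under 0.05, beside 1.81%), with 0 called by limma in both. Timp1 differed by −2.16 (SE 0.96) and Havcr1, which encodes the injury marker KIM-1, by −2.55 (SE 0.94), the latter well above background on 3 of 4 Fcgr2b-ko and 2 of 4 double-deficient arrays, and Sprr2f was well above background on 3 of 4 Fcgr2b-ko and 0 of 4 double-deficient arrays. The list's mean had r = 0.83 with the members' average (Spearman 0.36), 0.23 without Fcgr2b-ko mice 1 and 4, and 0.94 and −0.30 within slides 1 and 2. The relation thus rests on those mice, and the part of tubular injury in the members' values was not tested.

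Of the other cell types, 9 tested T cell markers had a mean of 2.19, −0.19, −0.47 and 1.42 in Fcgr2b-ko mice, and medians of −0.99 for STING loss on the Fcgr2b-deficient background, 0.41 for STING loss alone and 0.91 for Fcgr2b loss. Their summed signal, with Cd4 the most abundant gene of the list, was 3.35, 3.62, 3.64 and 3.23 in WT, 4.48, 3.77, 3.36 and 3.91 in Fcgr2b-ko, 3.32, 3.66, 3.26 and 3.48 in double-deficient and 3.61, 3.26, 3.47 and 3.21 in Sting-ko mice, and the mean had r = 0.74 with the members' average (Spearman 0.51), 0.24 without Fcgr2b-ko mice 1 and 4 and 0.92 and −0.40 within slides 1 and 2. In that order the medians were −0.34, −0.31 and 0.72 for 9 neutrophil markers (r = 0.74 with the members, Spearman 0.56, 0.38 without Fcgr2b-ko mice 1 and 4, 0.81 and 0.37 within slides), −0.52, 0.28 and 0.98 for 7 platelet markers, 0.05, 0.55 and 0.10 for 8 B and plasma cell markers and 0.02, 0.68 and 0.42 for 10 markers of endothelium and smooth muscle. The mean of the endothelium and smooth muscle markers had r = 0.76 with the members' average (Spearman 0.71), 0.74 without Fcgr2b-ko mice 1 and 4 and 0.80 and 0.51 within slides 1 and 2, so this relation did not rest on those mice. The 11 proximal tubule markers were all lower with Fcgr2b loss (−0.35) and all higher with STING loss on that background (0.39), and 10 of 11 were lower with STING loss alone (−0.29). Their mean had r = −0.71 with the members' average (Spearman −0.60), −0.40 without Fcgr2b-ko mice 1 and 4 and −0.79 and −0.17 within slides 1 and 2. Kidneys were not perfused in the study, and 6 tested red cell genes had medians of −0.17, 0.24 and −0.26, with r = −0.09 with the members. Medians were 0.02, 0.04 and −0.05 for 12 markers of other nephron segments, 0.06, −0.23 and −0.02 for 5 tested adrenal genes and −0.20, 0.21 and −0.44 for 8 fat markers. The adrenal genes Cyp11b1, Cyp11b2, Dbh, Chga and Chgb, the neutrophil gene Ngp and the B cell gene Cd79a were not well above background on any array. With limma 0 genes of these lists were called, and the part of these cells in the members' values was not tested.

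**Figure D5:**
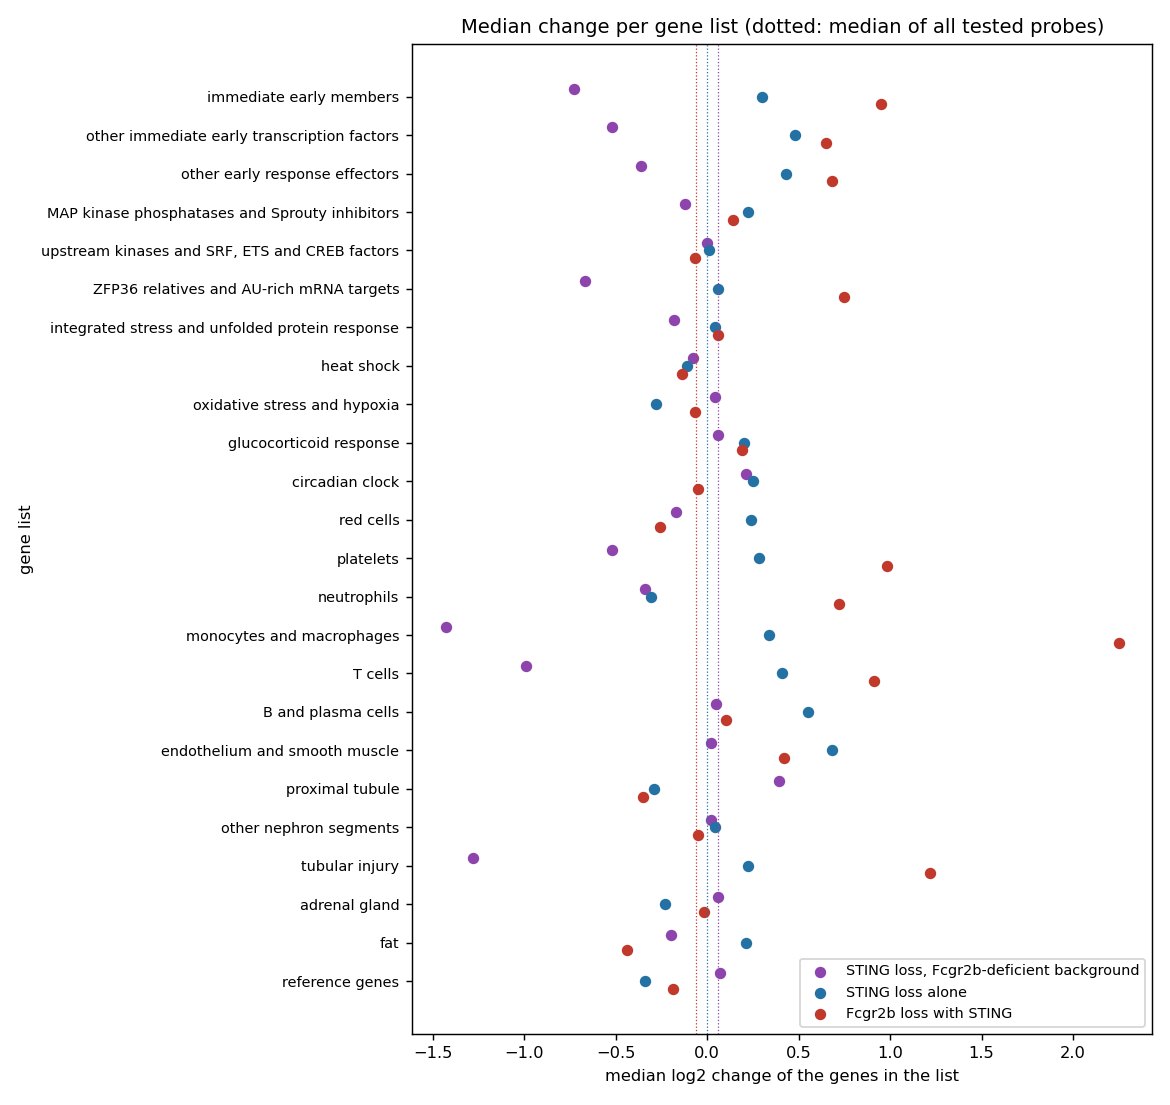
Median log2 change (horizontal) of the genes in each list (vertical) for STING loss on the Fcgr2b-deficient background, STING loss alone and Fcgr2b loss with STING; dotted lines mark the median of all tested probes. The members lie at −0.73, 0.30 and 0.95, and the monocyte and macrophage markers at −1.43, 0.34 and 2.25.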

How the data were processed

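Kidney RNA of 16 mice, 4 per genotype, was measured on one-colour arrays. The authors deposited scanner files of intensity (Agilent Feature Extraction 11.0, background-subtracted, unscaled between arrays) and a table of log2 values of the same arrays. In Python 3.11.15 (pandas 2.3.3, numpy 2.4.6), control and outlier spots were dropped, log2 intensity was averaged over the spots of a probe, and the 75th percentile of these averages was subtracted array by array. The 35628 probes that exceeded background clearly on 4 or more arrays entered limma 3.58.1 under R 4.3.3 (with statmod 1.5.0), with a mean per genotype, Benjamini-Hochberg over all tested probes, and calls at adjusted p under 0.05 and 2-fold. Names came from RefSeq GRCm38.p6 (32994 probes); the array's build differs. Correlations used scipy 1.17.1 and plots matplotlib 3.10.9. Members and lists were chosen with earlier results of these data known. Named are all members, up to 3 genes per list with the largest change in each STING comparison, and genes among the 10 most correlated with the members' average. Not every gene this rule gives is printed.

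Alternatives were normexp correction (offset 50, on median spot signal), quantile or median scaling, the authors' table, no filter or a filter on all 16 arrays, fitting the compared groups alone, Mann-Whitney with and without adjustment, trend and robust eBayes, no fold threshold, the median of a gene's probes, slide, replicate number or animal label as a block, summed Y-linked signal as covariate, and leaving out arrays singly. Chosen after seeing the data were leaving out Fcgr2b-ko mice 1 and 4 and a 75th percentile over all spots.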

Additional observations from a re-analysis of the deposited data

Results flagged for a closer look

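Of 44 groups of 4 mice tested, 2 held a mouse far from the other 3, and chance gives about 1 in 20 groups. Jun was at 1.44 in double-deficient mouse 2, where the next mouse of that genotype was at 2.26. Dusp1 was at 1.1 in double-deficient mouse 1, where the next was at 2.25.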

How the results depend on the processing

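Members called were 0 in every comparison under all 34 settings run. Under the alternatives other than leaving out mice, the members' median ran from −0.81 to −0.61 for STING loss on the Fcgr2b-deficient background, 0.06 (scaling by the median) to 0.40 for STING loss alone, −1.28 to −0.95 for the interaction, 0.79 to 1.06 for Fcgr2b loss with STING, −0.05 to 0.13 for Fcgr2b loss without STING and 0.09 to 0.21 for double deficiency. With each mouse left out in turn it ran from −0.92 to −0.55 for STING loss on the Fcgr2b-deficient background, 0.20 to 0.49 for STING loss alone, −1.51 to −0.93 for the interaction, 0.76 to 1.13 for Fcgr2b loss with STING, −0.04 to 0.06 for Fcgr2b loss without STING and 0.08 to 0.35 for double deficiency. Of 1998 single-gene values under alternatives, 93 changed sign, 29 of them of Ier3.

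Without both Fcgr2b-ko mice 1 and 4 the medians were −0.16 for STING loss on the Fcgr2b-deficient background, −0.52 for the interaction and 0.41 for Fcgr2b loss with STING, and 1, 3 and 3 probes were called for Fcgr2b loss with STING, Fcgr2b loss without STING and double deficiency. The 18 probes called for Fcgr2b loss with STING became 3 with normexp, 7 with the authors' table, 0 with the filter on all 16 arrays or only the groups compared, 3 with the animal label as a random block, 8 with Y-linked signal as a covariate, 144 by unadjusted Mann-Whitney at 2-fold or more and 0 by adjusted (which 4 against 4 mice could not pass here), 16 with a percentile over all spots, and 0 to 37 with a mouse left out. Elsewhere, where limma called 0, normexp and the filter on all 16 arrays each called 1 for double deficiency. Only the groups compared called 2 for Fcgr2b loss without STING and 3 for double deficiency, and leaving out a mouse called 0 to 1 for each. Unadjusted Mann-Whitney called 41 for STING loss on the Fcgr2b-deficient background, 127 for STING loss alone, 171 for Fcgr2b loss without STING and 63 for double deficiency. The interaction has no separate value by Mann-Whitney or in only the groups compared. The median r of members was 0.57 in the authors' table (0.62 with genotype means removed) and 0.16 without the 2 farthest arrays. The cause was not tested.

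The labels do not say whether mice sharing a replicate number belong together. Over 24 pairs of arrays sharing a number r ran from −0.603 to 0.689, and was over 0.1 in 11. For number 1, r was 0.689 for WT with Fcgr2b-ko, 0.427 for WT with Sting-ko and 0.445 for Fcgr2b-ko with Sting-ko. With double-deficient mouse 1 it was −0.603 for WT, −0.328 for Fcgr2b-ko and 0.118 for Sting-ko. Whether such mice share a batch was not tested. With the replicate number as a block, 16 probes and 0 members were called for Fcgr2b loss with STING, and 5 members had an unadjusted p under 0.05 for STING loss on the Fcgr2b-deficient background. The share of all probes at that unadjusted p under this block is not given. The first number of the animal label is shared by WT mice 3 and 4, by Fcgr2b-ko mouse 3 and double-deficient mouse 4 (r = 0.67) and by Fcgr2b-ko mouse 4 and double-deficient mouse 3 (r = 0.371). The labels do not say what it means, and the block's consensus correlation of 0.827 rests on these 3 pairs.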
